A study of Mus musculus with 6 samples.

Results

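The 9 genes described here are imprinted genes that are known for their part in growth before birth: Dlk1, Peg3, Plagl1, Mest, Ndn, Peg10, Grb10, Gnas and Zim1. They were taken by symbol from a table of 15803 genes. All 9 of 9 were present, each with at least 19 reads in every library, and all 9 entered the test between genotypes. Growth plate cartilage of mouse embryos at E18.5 had been sequenced as bulk mRNA in 6 libraries. Both groups carried the loxP-flanked alleles Hnrnpk fl/fl. The embryos of the 3 CKO libraries also carried Col2a1-Cre, and those of the 3 WT libraries had no Cre. Hnrnpk makes an RNA-binding protein, and Cre was driven by the promoter of Col2a1, a collagen gene of chondrocytes that the perichondrium can also use. The comparison asks how the loss of Hnrnpk in these cells changes the transcripts of the growth plate. The labels give no embryo for a library, so the p-values below measure only the spread between these samples, which may be technical.

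At an imprinted gene, the copy inherited from the father and the copy inherited from the mother carry different DNA methylation, and only one of them is transcribed. Paternally expressed genes are often known as promoters of fetal growth and maternally expressed genes as brakes on it, with exceptions in both directions, and many of them are high in fetal mesenchyme and are shut down after birth. Of the genes here, Dlk1, Peg3, Plagl1, Mest, Ndn and Peg10 are known to be expressed from the paternal copy and Zim1 from the maternal copy. Grb10 is maternal in many tissues and paternal in neurons, and the main transcript of Gnas uses both copies in many tissues and the maternal copy in some. The values are total levels of both copies, and the allele of origin was not measured.

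In the libraries labelled CKO, Peg10 and Mest were higher than in those labelled WT, and Dlk1 and Zim1 were lower, each past an adjusted p of 0.05 in limma. Peg3, Ndn and Plagl1 were at lower values in every CKO library than in any WT library without passing that threshold, and Grb10 and Gnas overlapped between the genotypes. Over the 12155 genes tested, 3.18% were higher and 2.60% lower by that threshold, and the libraries of WT and CKO did not overlap in 14.5% with CKO higher and in 13.2% with CKO lower. Among the 6 paternally expressed genes, 2 were higher and 1 was lower by the adjusted threshold, and the other 3 were at lower values in CKO without passing it.

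Values are CPM, the reads of a gene per 1000000 reads on all genes of the table. The libraries held 1153871 to 1454094 reads, so that 1 read was worth 0.688 to 0.867 CPM. Hnrnpk itself ranged from 842 to 955 CPM in WT and from 759 to 950 CPM in CKO and overlapped (log2 fold change -0.14, SE 0.15, limma adjusted p = 0.622). The loxP sites flank only some of its exons, and the values are per gene, so the deletion could not be checked here. The study reported loss of the Hnrnpk protein from CKO growth plates at an earlier stage, by Western blot and immunostaining. The CKO libraries are therefore called by their label. The summed level of 14 chondrocyte markers was 27962 to 36713 CPM in WT and 6754 to 7232 CPM in CKO, with none of the 14 at 0, so the labelled cell type was present in every library and its markers were lower in CKO. In bulk samples, fewer cells of a type and less RNA per cell cannot be told apart. WT 3 and CKO 2 stood apart from the other libraries of their groups. WT 3 had the highest sum of osteoblast (mostly Spp1), fat cell, blood and macrophage (mostly Lyz2) and skeletal muscle markers of the WT libraries. CKO 2 had the highest sum of keratinocyte (mostly Klk10), proliferation and skeletal muscle (mostly Myog) markers of the CKO libraries. CKO 2 also had the lowest sum of fat cell and fibroblast markers of the CKO libraries. For that reason the values without these libraries are given where they change a call.

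Promoter sequences are shown for 4 genes that carry the comparison: Dlk1 and Zim1, which fell, Mest, which rose, and Peg3, whose window alone held one of the motifs searched. Each is the RefSeq window of 300 bases on GRCm38.p6, 250 bases before to 50 bases after an annotated start, read 5′ to 3′ on the strand of the gene, with CpG dinucleotides, the sites of DNA methylation, in capitals. The window of Dlk1 is chr12:109452573-109452872 on the plus strand, that of Zim1 is chr7:6696383-6696682 on the minus strand, that of Peg3 is chr7:6730370-6730669 on the minus strand and that of Mest is chr6:30737800-30738099 on the plus strand.
Dlk1: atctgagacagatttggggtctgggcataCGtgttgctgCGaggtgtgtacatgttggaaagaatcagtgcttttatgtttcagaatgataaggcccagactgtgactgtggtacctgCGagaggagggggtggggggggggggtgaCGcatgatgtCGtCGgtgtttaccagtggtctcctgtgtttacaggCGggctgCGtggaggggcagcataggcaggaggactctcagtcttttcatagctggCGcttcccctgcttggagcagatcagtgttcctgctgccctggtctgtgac
Zim1: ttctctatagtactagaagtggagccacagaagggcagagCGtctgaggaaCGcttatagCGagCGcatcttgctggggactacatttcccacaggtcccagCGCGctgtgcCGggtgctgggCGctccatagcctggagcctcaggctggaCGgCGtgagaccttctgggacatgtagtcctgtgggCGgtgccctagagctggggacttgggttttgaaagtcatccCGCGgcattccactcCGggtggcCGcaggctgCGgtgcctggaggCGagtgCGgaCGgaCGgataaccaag
Peg3: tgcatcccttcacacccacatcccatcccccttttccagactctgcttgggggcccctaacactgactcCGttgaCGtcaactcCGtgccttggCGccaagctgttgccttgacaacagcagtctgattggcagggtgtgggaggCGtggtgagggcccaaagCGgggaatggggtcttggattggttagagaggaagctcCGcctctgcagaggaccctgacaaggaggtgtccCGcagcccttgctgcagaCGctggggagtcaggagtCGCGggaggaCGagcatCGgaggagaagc
Mest: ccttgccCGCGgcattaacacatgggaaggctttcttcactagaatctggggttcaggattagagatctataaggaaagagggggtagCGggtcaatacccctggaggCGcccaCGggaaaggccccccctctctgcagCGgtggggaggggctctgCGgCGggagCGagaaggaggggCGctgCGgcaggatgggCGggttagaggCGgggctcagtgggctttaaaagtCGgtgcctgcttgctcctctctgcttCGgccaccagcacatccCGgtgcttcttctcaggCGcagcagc

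Dlk1 held 9 CpG in this window, Peg3 held 13, Mest held 17 and Zim1 held 20. The tables gave 14 windows for 8 of the 9 genes and none for Peg10. The 14 windows held 8 to 45 CpG with a median of 17, beside a median of 7 over 32851 mouse promoter windows of the same length, and the 45 were in a window of Grb10. Some windows of Gnas and of Mest overlapped, so the 14 are not separate promoters. At least as many CpG as in the window shown were held by 45.8% of all windows for Dlk1 and 37.9% for Peg3. For Mest it was 31.4% and for Zim1 26.5%. The palindrome GGGGCCCC, a core sequence bound by the Plagl1 protein, was found once, in the window of Peg3 from base 50. It was present in 1.08% of all windows. The YY1 sequence AAGATGGC, searched on both strands, was in 0 of the 14 windows and in 2.75% of all windows. These are matches of letters and were not measured as bound sites.

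The genes covered a wide range of levels. Levels were divided by exon length, the length of all annotated exons of a gene with overlaps counted once. This was 11186 bases for Gnas, and a shorter transcript would stand higher per kilobase, so the order between genes depends on this length. The mean WT level was then 1790 CPM per kilobase for Mest, 177 for Dlk1, 63.0 for Ndn, 48.6 for Grb10, 35.1 for Peg3, 22.9 for Gnas, 13.6 for Plagl1, 6.52 for Zim1 and 2.35 for Peg10. In this order of WT levels per kilobase, neighbouring genes did not overlap between their 3 libraries, except Grb10 (44.4 to 54.2) and Peg3 (27.4 to 47.2). In CKO some neighbours traded places. Mest stood at 3073 CPM per kilobase and Dlk1 at 68.3, and Dlk1, with a range of 40.0 to 123, then overlapped Ndn and Grb10. Gnas at 26.4 CPM per kilobase stood above Peg3 at 20.8, without overlap. Before division by length these 2 genes overlapped in CKO (274 to 311 and 248 to 302 CPM). Peg10 at 5.72 CPM per kilobase stood above Zim1 at 2.37, also without overlap. The plot of the 9 genes by library shows these levels before division by length.

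**Figure D1:**
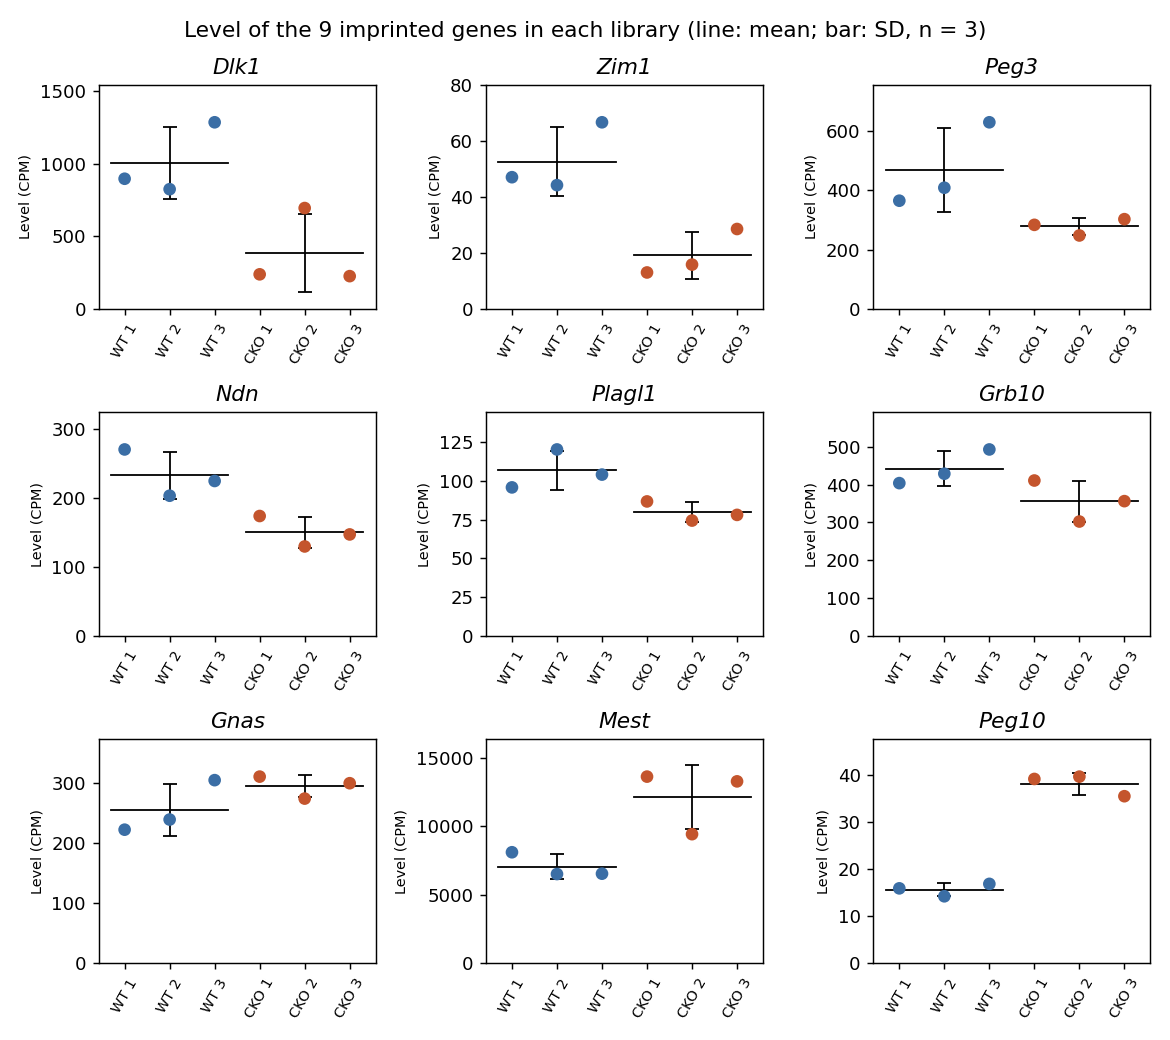
Level of each of the 9 imprinted genes in CPM (y axis, from 0, own scale for each gene) in the 3 WT libraries (blue) and the 3 CKO libraries (orange), with the mean as a line and the SD as a bar (n = 3). All CKO points lie below all WT points for Dlk1, Zim1, Peg3, Ndn and Plagl1 and above them for Mest and Peg10, and the points of Grb10 and Gnas overlap.

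Dlk1 makes a membrane protein with EGF-like repeats, related to the Notch ligands, that is known to hold precursor cells of fat and skeleton back from differentiation. Its level was 895.9, 824.0 and 1284 CPM in the WT libraries 1, 2 and 3, and 238.6, 694.4 and 226.2 CPM in the CKO libraries 1, 2 and 3. The groups did not overlap, but CKO 2 stood much closer to the WT libraries than the other two CKO libraries did. The mean was 1001 ± 247 CPM in WT and 386 ± 267 CPM in CKO (SD, n = 3), 2.59-fold lower. The log2 fold change on log2(CPM + 1) was -1.55 (SE 0.37, 95% interval -2.38 to -0.73, limma adjusted p = 0.0385). Without CKO 2 it was -2.08 with an adjusted p of 9.79e-05, and without any one of the other 5 libraries (WT 1, WT 2, WT 3, CKO 1 or CKO 3) it was -1.68 to -1.27 with an adjusted p of 0.105 to 0.146, and on the recovered reads the adjusted p was 0.0687 in edgeR and 0.00282 in DESeq2. Over all 13 alternatives it was 8.75e-12 to 0.146. The lowest came from leaving out WT 3 and CKO 2 together, a setting that was chosen after the data were seen, removes the CKO library nearest to WT for Dlk1 and Mest, and leaves 2 libraries a group. Of 11911 genes it called 1312 higher and 1098 lower by adjusted p, so its p-values were not read as added support for any gene. Dlk1 was highest in CKO 2 among the CKO libraries and in WT 3 among the WT libraries. In CKO 2 the summed fat cell markers (141 CPM, beside 891 and 941 CPM) and fibroblast markers (1974 CPM, beside 3536 and 3560 CPM) were lowest. The skeletal muscle sum was highest there (320 CPM, beside 144 and 146 CPM), as were the keratinocyte and proliferation sums. In WT 3 the skeletal muscle sum (311 CPM, beside 105 and 68.3 CPM) and the fat cell and fibroblast sums were highest. The part of these cell types in the result was not tested. Dlk1 lies at chr12:109452823-109463336 on the plus strand of GRCm38 (ENSMUSG00000040856).

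Peg3 and Zim1 are zinc finger genes that lie next to each other on chromosome 7, at chr7:6703892-6730431 (ENSMUSG00000002265) and chr7:6671269-6696450 (ENSMUSG00000002266), both on the minus strand. Peg3 is known for its part in fetal growth and in maternal behaviour, and Zim1 is transcribed from the copy on which Peg3 is silent. Zim1 was at 47.1, 44.3 and 66.7 CPM in the WT libraries and at 13.1, 15.9 and 28.6 CPM in the CKO libraries. These values rest on 65, 59 and 79 reads in WT and on 19, 22 and 33 reads in CKO. Every CKO library was below every WT library. On the log2 scale the difference was -1.46 (SE 0.31, 95% interval -2.15 to -0.78, limma adjusted p = 0.0236). Without any one of WT 1, WT 2, WT 3 or CKO 1 it was -1.58 to -1.24 with an adjusted p of 0.0672 to 0.0887, and all 13 alternatives gave 0.00411 to 0.0887.

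Peg3 was at 364.6, 408.2 and 628.5 CPM in WT and at 283.3, 247.6 and 302.5 CPM in CKO. The groups did not overlap, and the width of the WT range came from WT 3. Its log2 fold change was -0.71 (SE 0.21, 95% interval -1.17 to -0.25) with a limma adjusted p of 0.0743. The count tests on the recovered reads gave an adjusted p of 0.0486 in edgeR and 0.0244 in DESeq2. Without WT 3 and CKO 2 together, which removed both libraries that stood apart, the log2 fold change of Peg3 was -0.40, smaller than with all libraries, with an adjusted p of 0.00647, and the adjusted p ranged from 0.00647 to 0.178 over the alternatives. Set against its neighbour within each library, Zim1 amounted to 12.9%, 10.8% and 10.6% of the Peg3 reads in WT and to 4.61%, 6.41% and 9.46% in CKO. The share was lower in all 3 CKO libraries (exact two-sided permutation test, p = 0.1, the smallest that 3 against 3 libraries allow).

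Ndn makes necdin, a protein of the MAGE family that restrains cell proliferation and whose gene lies in a region that is deleted in humans with Prader-Willi syndrome. Its level was 270.4, 203.4 and 224.7 CPM in WT and 174.0, 129.9 and 147.3 CPM in CKO, without overlap. Its log2 fold change was -0.63 (SE 0.18, 95% interval -1.02 to -0.23, limma adjusted p = 0.0690). On the recovered reads the adjusted p was 0.0453 in edgeR and 0.0624 in DESeq2. Without WT 3 and CKO 2 together it was 0.00658 in limma, with 0.00658 to 0.244 over the alternatives. Ndn lies at chr7:62346569-62350262 on the plus strand (ENSMUSG00000033585).

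Plagl1, also called Zac1, encodes a zinc finger transcription factor that is known to regulate a network of other imprinted genes, Dlk1, Igf2 and Cdkn1c among them. It was at 95.7, 120.1 and 103.9 CPM in WT and at 86.7, 74.3 and 78.0 CPM in CKO, again without overlap. The log2 fold change of Plagl1 was small beside those of Dlk1 and Zim1, at -0.41 (SE 0.17, 95% interval -0.80 to -0.024), and its limma adjusted p was 0.208. No alternative setting brought it past the threshold (adjusted p 0.0952 to 0.462). Plagl1 lies at chr10:13060504-13131694 on the plus strand (ENSMUSG00000019817).

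Mest makes a protein of the alpha/beta hydrolase fold in the endoplasmic reticulum and is abundant in fetal mesenchyme. It was at 8116, 6524 and 6550 CPM in WT and at 13640, 9437 and 13294 CPM in CKO. All CKO libraries exceeded all WT libraries, and CKO 2 was the closest to WT, as for Dlk1. Mest ranked 3, 6 and 7 among all genes in the WT libraries, where the chondrocyte gene Cnmd was the first. In the libraries CKO 1 and CKO 3 it was the gene with the highest CPM of the whole table, and in CKO 2 it was second to the osteoblast and hypertrophic chondrocyte gene Spp1. It took 0.652% to 0.812% of the reads in WT and 0.944% to 1.36% in CKO.

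The mean level of Mest was 7063 ± 911 CPM in WT and 12124 ± 2333 CPM in CKO (SD, n = 3), 1.72-fold higher. This was a log2 fold change of 0.77 (SE 0.18, 95% interval 0.37 to 1.17, limma adjusted p = 0.0355), which is under the fold of the criterion used below. Without CKO 2 it was 0.94 with an adjusted p of 0.00152, and without any one of WT 1, WT 2, WT 3, CKO 1 or CKO 3 it was 0.67 to 0.87 with an adjusted p of 0.0629 to 0.155. It was 0.0520 with no filter on low genes, 0.0511 with TMM scaling, 0.0442 in edgeR and 0.00983 in DESeq2, and 6.29e-09 (without WT 3 and CKO 2 together) to 0.155 over all alternatives. Mest lies at chr6:30723547-30748465 on the plus strand (ENSMUSG00000051855). It shares 912 exon bases with Copg2 on the opposite strand, and whether reads were counted by strand is not stated, so reads of the shared part may have been placed with either gene. Copg2 amounted to 2.16%, 2.55% and 2.17% of the Mest reads in WT and to 1.47%, 1.15% and 1.55% in CKO, and its own log2 fold change was 0.04 (SE 0.24, limma adjusted p = 0.954).

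Peg10, a gene derived from a retrotransposon and needed in the placenta, had low levels. It was at 15.9, 14.3 and 16.9 CPM in WT and at 39.2, 39.7 and 35.5 CPM in CKO, on 22, 19 and 20 reads and 57, 55 and 41 reads. The libraries of each group lay close together, and the groups were far apart, with CKO 2 and WT 3 no exception. The mean was 15.7 ± 1.34 CPM in WT and 38.1 ± 2.27 CPM in CKO, 2.43-fold higher. This was a log2 fold change of 1.23 (SE 0.23, 95% interval 0.73 to 1.73, limma adjusted p = 0.0130). It stayed between 1.17 and 1.28 when any 1 library was left out, with an adjusted p of 0.0568 to 0.0665 without WT 1, WT 2, CKO 1 or CKO 3 and 0.00118 to 0.0665 over the alternatives. Peg10 lies at chr6:4747306-4760517 on the plus strand (ENSMUSG00000092035).

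Grb10 makes an adaptor protein that binds the receptors of insulin and IGF1 and dampens their signal, and it is a brake on fetal growth. Its level was 403.7, 428.5 and 492.5 CPM in WT and 410.6, 302.4 and 356.2 CPM in CKO. CKO 1 fell within the WT range and the other CKO libraries fell below it (log2 fold change -0.31, SE 0.16, 95% interval -0.68 to 0.048, limma adjusted p = 0.303). Gnas encodes the stimulatory G protein alpha subunit, through which the receptor of parathyroid hormone-related protein raises cAMP in chondrocytes. Gnas was at 222.5, 239.4 and 305.0 CPM in WT and at 310.8, 274.3 and 299.9 CPM in CKO, where WT 3 lay among the CKO libraries (log2 fold change 0.22, SE 0.16, 95% interval -0.15 to 0.58, limma adjusted p = 0.491). Without WT 3 and CKO 2 together the log2 fold change of Gnas was 0.40 with an adjusted p of 0.00773, the lowest of the alternatives, which reached 0.788. The intervals of both genes leave out a change of 2-fold in either direction. Gnas (chr2:174284320-174346744, plus strand, ENSMUSG00000027523) holds several promoters and shares 1469 exon bases with Gm20721 and 988 with Nespas on the opposite strand, and its transcripts were not separated here. Grb10 lies at chr11:11930508-12038683 on the minus strand (ENSMUSG00000020176).

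**Figure D2:**
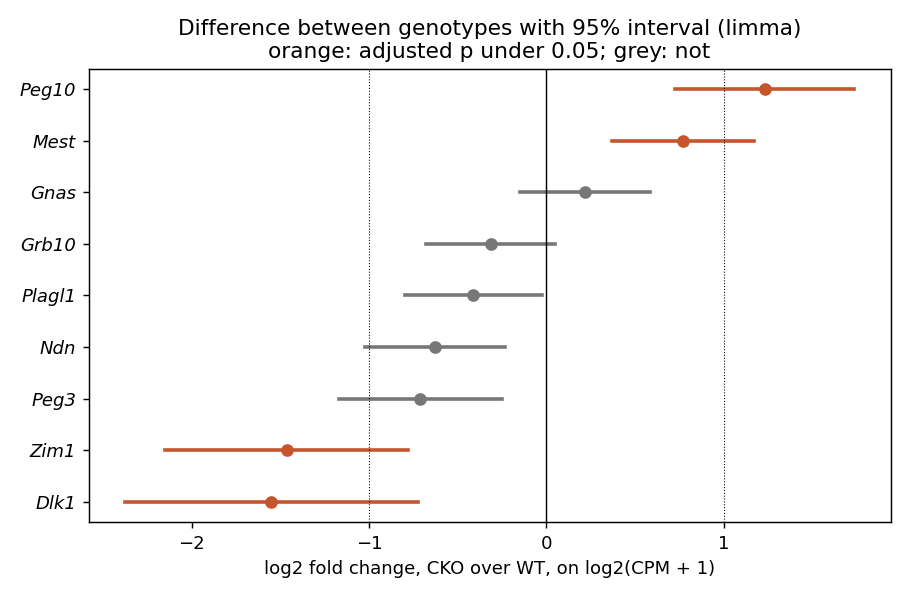
Log2 fold change of CKO over WT on log2(CPM + 1) (x axis) for each of the 9 genes, with the 95% interval of limma as a line, in orange where the adjusted p was under 0.05 and in grey otherwise. Dotted lines mark log2 fold changes of -1 and 1. Dlk1, Zim1 and Peg10 lie beyond them, and Mest at 0.77 lies within.

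A criterion of a difference of more than 1 on the log2 scale in either direction together with an unadjusted p under 0.05 was also used. By it, 1 of the 9 genes was upregulated (Peg10) and 2 were downregulated (Dlk1 and Zim1). Over the 12155 genes tested, 5.30% passed this criterion upward and 5.10% downward. With an adjusted p under 0.05 and no limit on the fold, 2 were higher (Mest and Peg10) and 2 lower (Dlk1 and Zim1), beside 3.18% and 2.60% of all genes tested. WT and CKO did not overlap in 7 of the 9, with 2 higher and 5 lower, beside 14.5% and 13.2% of all genes tested. The median log2 fold change of the 9 genes was -0.41, and that of all genes tested was 0.013. The counts by the criterion were the same when any 1 library was left out. The counts by adjusted p were not. Without WT 1 or WT 2 there were 0 higher and 0 lower, without WT 3 there were 1 and 0, without CKO 1 there were 0 and 0 and without CKO 3 there were 0 and 1.

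The neighbours of these genes in the same imprinted clusters did not all share their direction. In the cluster of Peg10, Pon2 (chr6:5264147-5298455), which lies beyond Ppp1r9a and Pon3, was at 25.4, 21.8 and 23.7 CPM in WT and at 63.3, 41.9 and 45.9 CPM in CKO. The log2 fold change of Pon2, which encodes a membrane enzyme of the paraoxonase family, was 1.04 (SE 0.23, limma adjusted p = 0.0282), and it passed that threshold without CKO 2 and not without any other single library (adjusted p up to 0.131 over all alternatives). Sgce, which starts head to head with Peg10 and is known to share its paternal expression, had a log2 fold change of -0.08 (SE 0.25, adjusted p = 0.897), at 91.2 to 120 CPM in WT and 67.8 to 134 CPM in CKO. Sgce thus amounted to 682%, 842% and 540% of the Peg10 reads in WT and to 284%, 171% and 378% in CKO (exact two-sided permutation test, p = 0.1). The values of Pon3 (0.30), Ppp1r9a (-0.63), Asb4 (-0.33) and Casd1 (-0.05) did not pass either threshold.

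In the cluster of Ndn, Magel2, a gene of the same MAGE family, had 11, 2 and 24 reads in the WT libraries and 4, 0 and 1 in the CKO libraries, and WT 2 lay within the CKO range. The log2 fold change of Magel2 was -2.03 (SE 0.77, unadjusted p = 0.0237, limma adjusted p = 0.159, with 0.0729 to 0.411 over the alternatives), which passed the criterion and not the adjusted threshold. Snrpn (-0.33), Ube3a (-0.27), Atp10a (-0.23) and Mkrn3 (-0.73) passed neither. Nor did Rtl1 (-0.24) and Dio3 (-0.005) in the cluster of Dlk1, Usp29 (-0.12) beside Peg3, Klf14 (-1.05, unadjusted p = 0.0789) near Mest, or Ddc (-0.70) and Cobl (-0.87) beside Grb10. Rtl1, Dio3, Klf14 and Mkrn3 had 25 reads or fewer over all 6 libraries, so that a moderate change in them was not detectable at this depth.

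**Figure D3:**
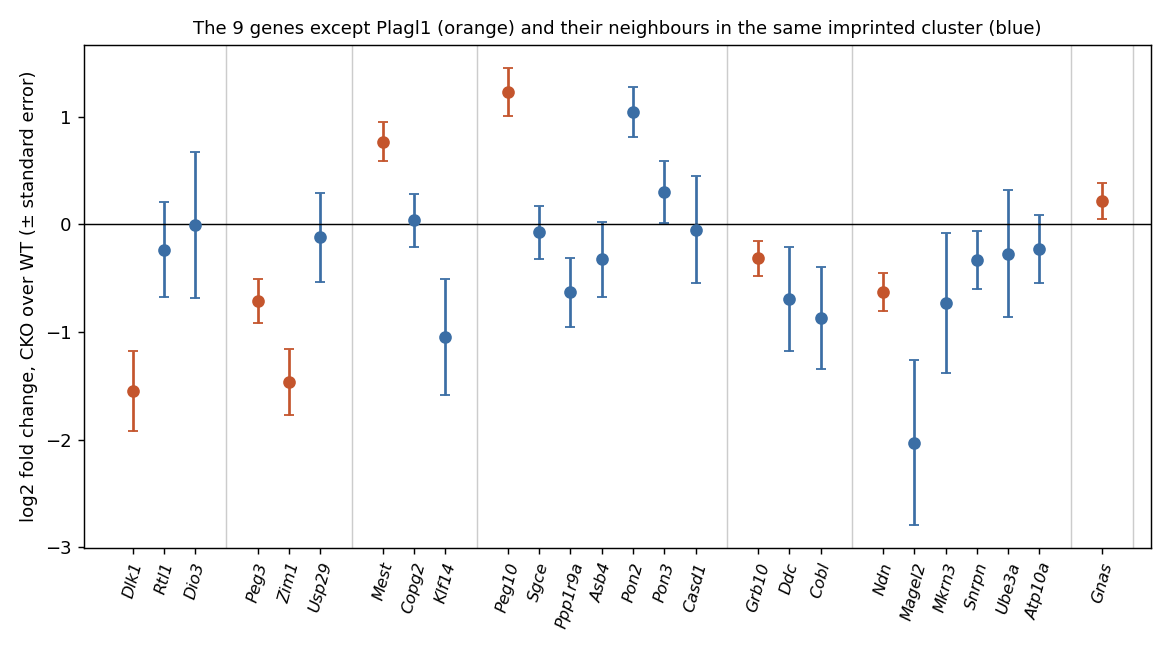
Log2 fold change of CKO over WT (y axis, with the standard error) for the imprinted genes other than Plagl1 (orange) and the tested neighbours of their clusters (blue), grouped by cluster. Peg10 and Pon2 stand above the other genes of their cluster, Dlk1 stands below Rtl1 and Dio3, and Zim1 stands below Peg3 and Usp29.

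Of 62 other imprinted genes on a hand-compiled list, 49 were in the table and 40 were tested. Of these, 12 were at higher and 28 at lower values in CKO, and their median log2 fold change was -0.26. Over the 12155 genes tested, 6180 were at higher and 5975 at lower values, with a median of 0.013. By the criterion 1 of the 40 was upregulated (Pon2) and 4 were downregulated (Cdkn1c, Tspan32, Dcn and Magel2), beside 5.30% and 5.10% of all genes tested. By adjusted p 1 was higher (Pon2) and 4 were lower (Dcn, Cdkn1c, Tspan32 and Igf2), beside 3.18% and 2.60%. Igf2, the fetal insulin-like growth factor, was at 1674, 1829 and 1784 CPM in WT and at 1225, 582 and 1004 CPM in CKO (log2 fold change -0.98, SE 0.24, limma adjusted p = 0.0402). It kept an adjusted p under 0.05 without CKO 1 or without CKO 2 and lost it without WT 1, WT 2, WT 3 or CKO 3, with up to 0.149 over the alternatives. Cdkn1c, an inhibitor of cyclin-dependent kinases that lets chondrocytes leave the cell cycle, was at 175, 181 and 149 CPM in WT and at 71.5, 33.9 and 65.0 CPM in CKO (log2 fold change -1.61, SE 0.27, limma adjusted p = 0.00788, and up to 0.0559 without WT 1 or WT 2).

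Dcn encodes decorin, a proteoglycan that stands on the list of fibroblast markers as well. It fell by 1.89 on the log2 scale (SE 0.27, limma adjusted p = 0.00429) and stayed past the threshold whichever library was left out. The summed fibroblast markers, Dcn included, were 4239 to 6884 CPM in WT and 1974 to 3560 CPM in CKO. Of the 15 markers of that list tested, 4 had a higher and 11 a lower log2 fold change. Without overlap, 3 were higher in CKO (Ly6a, Prrx1 and Twist1) and 7 were lower, so the list did not move as one. Tspan32 fell by 1.68 on 59 reads in all (SE 0.37, limma adjusted p = 0.0270), and lost the call without WT 1, WT 2, CKO 1 or CKO 3 (adjusted p up to 0.133). Igf2r, the maternally expressed receptor that clears Igf2, was at 29.7, 27.8 and 31.3 CPM in WT and at 21.3, 20.9 and 18.2 CPM in CKO, without overlap, and did not pass the adjusted threshold (log2 fold change -0.53, SE 0.23, limma adjusted p = 0.208).

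The partners of 3 of the proteins were taken from lists compiled by hand. Of 17 genes of insulin and IGF receptor signalling around Grb10, 0 were upregulated and 1 was downregulated by the criterion, Pik3r1, the regulatory subunit of phosphoinositide 3-kinase (log2 fold change -1.30, SE 0.53, limma adjusted p = 0.189). By adjusted p the 1 gene was Igf2, which stands on this list as well, and 4 of the 17 had an unadjusted p under 0.05, beside 21.3% of all genes tested, a share near that of the list. Igf2 was also the 1 gene called by edgeR and by DESeq2 among the 14 they tested. The receptors bound by Grb10 passed neither threshold, with 18.1 to 22.0 CPM in WT and 14.7 to 28.2 CPM in CKO for Igf1r (log2 fold change 0.07, SE 0.29) and a log2 fold change of -0.33 (SE 0.49) for Insr. The median of the list was -0.26.

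Of 20 tested genes of receptors, cAMP and protein kinase A around Gnas, 0 passed the criterion and 0 the adjusted threshold of limma in either direction, and 3 of the 20 had an unadjusted p under 0.05, no larger a share than the 21.3% of all genes tested. With edgeR and with DESeq2, which each gave an adjusted p for 12 of these genes, 0 passed as well. Those 3, named after their values were seen, were Pth1r, Gnb1 and Gng12, and none of them passed either threshold of limma. Pth1r, the receptor of parathyroid hormone-related protein that signals through Gnas, was at 58.7, 51.8 and 55.8 CPM in WT and at 39.2, 20.2 and 30.3 CPM in CKO, without overlap (log2 fold change -0.91, SE 0.26, limma adjusted p = 0.0661, and 0.0261 to 0.207 over the alternatives). The G protein subunits Gnb1 (log2 fold change 0.82, adjusted p = 0.0766) and Gng12 (0.72, adjusted p = 0.0729) were at higher values in every CKO library than in any WT library. Of the Notch receptors, ligands and targets around Dlk1, 11 were in the table and 5 had enough reads to be tested. Dlk2, the paralogue of Dlk1, passed the criterion upward on 35 reads in all (log2 fold change 1.39, SE 0.46, limma adjusted p = 0.110), Notch2 passed neither threshold (-0.59, SE 0.70), and Hes1 had 1 read over the 6 libraries.

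Some other marker sums differed between the genotypes too, in part through single genes. Of the 14 chondrocyte markers, whose sum fell, 12 were downregulated by the criterion. The summed osteoblast markers were 1259 to 3941 CPM in WT and 12013 to 13187 CPM in CKO. Spp1 made up most of the CKO sum, at 11114, 11877 and 12045 CPM. Of the 8 osteoblast markers tested, 7 had a higher and 1 a lower log2 fold change, and 2 did not overlap. Ibsp (83.0 CPM) and Bglap2 (35.4 CPM) lay within the WT range in CKO 2 and above it in CKO 1 and CKO 3. The keratinocyte sum was 61.7 to 89.9 CPM in WT and 540 to 1063 CPM in CKO. Klk10 made up most of the CKO sum, at 289, 830 and 291 CPM beside 23.3 to 27.9 CPM in WT. Perp, Sbsn and Slurp1 were also higher in every CKO library than in any WT library. Perp was at 97.0 to 145 CPM in CKO, beside 8.45 to 18.8 CPM in WT. Of the 7 keratinocyte markers tested, 6 had a higher and 1 a lower log2 fold change, and 4 did not overlap. Krt1, Krt15, Krtdap and Dsp had at most 3 reads in any library, and Krt10 and Trp63 overlapped. The endothelial sum was 31.2 to 34.6 CPM in WT and 39.9 to 71.5 CPM in CKO. Eng made up most of the CKO sum, at 30.3 to 54.9 CPM beside 15.8 to 22.5 CPM in WT. Egfl7 overlapped, and Pecam1, Cdh5, Tek, Tie1, Cldn5 and Emcn were at 2.53 CPM or less in every library. The sums of skeletal muscle (68.3 to 311 and 144 to 320 CPM), fat cells (364 to 836 and 141 to 941 CPM), blood and macrophages (63.8 to 298 and 195 to 208 CPM) and neural cells (114 to 160 and 84.9 to 133 CPM) overlapped between WT and CKO. In WT 3, Lyz2 alone held 270 CPM of the blood and macrophage sum. Cd68 of the same list was at 6.75 to 11.8 CPM in WT and at 46.9 to 76.3 CPM in CKO (log2 fold change 2.74, limma adjusted p = 0.00114). All 8 markers of that list tested had a higher log2 fold change, and 1 of them, Cd68, did not overlap. The proliferation sum was 906 to 993 CPM in WT and 1013 to 2147 CPM in CKO, with CKO 2 at the top. Of the 18 proliferation markers, 13 had a higher and 5 a lower log2 fold change, and only Rrm2 did not overlap. Rrm2 was at 114 to 151 CPM in WT and at 329 to 617 CPM in CKO, so the sum is no measure of proliferation as a whole. The part of these cell types in the levels of Dlk1, Zim1, Mest and Peg10 was not tested. Without WT 3 and CKO 2 the log2 fold changes of Mest, Peg10, Zim1 and Dlk1 were 0.89, 1.25, -1.19 and -1.88.

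**Figure D4:**
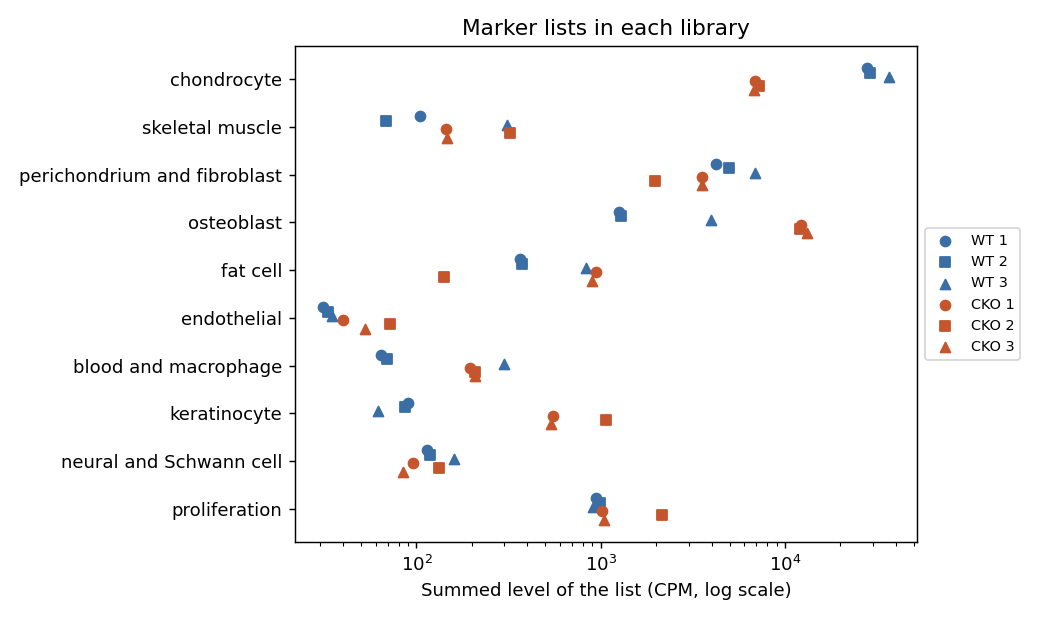
Summed level of each marker list in CPM (x axis, log scale) in the 3 WT libraries (blue) and the 3 CKO libraries (orange), with a symbol for each replicate number. The chondrocyte sum is lower in all CKO libraries (6754 to 7232 CPM, beside 27962 to 36713 CPM in WT). The osteoblast sum (mostly Spp1) and the keratinocyte sum (mostly Klk10 in CKO) are higher in all CKO libraries. CKO 2 and WT 3 stand apart on several lists.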

How the data were processed

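Total RNA of growth plate cartilage was made into libraries with a stranded mRNA kit. The submitters' processing notes name cutadapt (2.5), HISAT2 and featureCounts (1.6.3), and the genome build, the annotation and the strand setting of the counting are not given in the sources used here. The authors deposited CPM, in which each library sums to 1000000. 100% of the values were whole multiples of 1 read within 0.001 reads, and the reads were recovered (3 reads, used as the floor, are 2.06 to 2.60 CPM, and floors cover counting error only).

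With limma (3.58.1, R 4.3.3), log2(CPM + 1) was fitted on genotype for the 12155 genes whose mean reached 1 CPM, with empirical Bayes moderation that follows the mean-variance trend, and p-values were adjusted over all of them (Benjamini-Hochberg). Exact permutation tests were two-sided. On the recovered reads, edgeR's quasi-likelihood test (4.0.16) called 374 genes higher and 363 lower by adjusted p, and DESeq2 (1.42.0) called 344 and 305. Other alternatives were a pseudocount of 0.1, no filter, TMM scaling, a replicate block and each library left out. The removal of WT 3 and CKO 2 together was added after the data were seen. The scripts were tested on simulated data.

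The 9 genes and all lists were chosen with earlier results of these data known. The genes named were the 9, their cluster neighbours, genes of the lists past the criterion and a few partners of the 9 (Igf2, Igf2r, Cdkn1c, Igf1r, Insr, Pth1r, Notch2, Hes1). Neighbours and partners missing from the text are not analysed here. Positions are from GENCODE M21 on GRCm38 (15212 of 15217 Ensembl identifiers matched), and promoters are from RefSeq on GRCm38.p6. Similar transcripts were sought with BLAST (2.17.0) at 90% identity over 300 bases, which found only the overlap of Mest and Copg2.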

Additional observations from a re-analysis of the deposited data

How the results depend on the processing

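Each result was recomputed under 13 alternatives. None of the 9 genes changed direction, and the counts by the criterion (1 higher and 2 lower) and the direction of their median (-0.49 to -0.33) were the same under all 13. The counts by adjusted p moved. Of 2 genes higher, 1 was left with no filter and 1 with TMM scaling, 0 to 2 when 1 library was left out, and there were 3, with Gnas added, without WT 3 and CKO 2. Of 2 lower, 1 was left with a pseudocount of 0.1, 1 with the replicate block, 0 to 2 when 1 library was left out, and there were 3 with edgeR, 3 with DESeq2 and 4 without WT 3 and CKO 2. Dlk1 had an adjusted p of 0.0620 with the replicate block, 0.0531 with a pseudocount of 0.1 and 0.0687 with edgeR, and Mest had 0.0520 with no filter and 0.0511 with TMM scaling.

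Of the other imprinted genes, the 1 higher by adjusted p became 0 with the replicate block, 0 to 3 with a library left out and 4 without WT 3 and CKO 2, and the 4 lower became 2 with the block and 1 to 5 with a library left out, and there were 6 without WT 3 and CKO 2. By the criterion, the 1 higher became 2 with no filter, 2 with the block, 0 with TMM scaling, 0 to 3 with a library left out and 2 without WT 3 and CKO 2, and the 4 lower ranged from 4 to 7 with a library left out. Over all genes, 387 higher and 316 lower by adjusted p became 225 and 160 with the replicate block, 123 to 692 and 79 to 606 with a library left out (most without CKO 2), and 1312 and 1098 without WT 3 and CKO 2. The 644 genes higher by the criterion became 380 with edgeR, which tested 7704 genes.

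Libraries of the same number did not deviate together (correlations 0.038, -0.131 and -0.103), so the replicate numbers were not taken as pairs, and the block changed the call of no gene of the 9 but Dlk1. The causes of these changes were not tested. With 3 libraries a group and 1153871 to 1454094 reads, Zim1, Peg10 and the low neighbours rest on few reads, and where 1 library is left out the smaller group holds 2.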

Other observations

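A few imprinted genes outside the 9 had 1 CKO library on the far side of WT. They were chosen after their values were seen. Phlda2, a brake on placental growth, was at 6.75 to 10.1 CPM in WT, at 3.44 and 5.20 CPM in CKO 1 and CKO 3 and at 31.8 CPM in CKO 2. Ube3a, a ubiquitin ligase, had 15, 16 and 12 reads in the WT libraries, 6 and 6 reads in CKO 1 and CKO 3 and 41 reads in CKO 2. H13, which encodes signal peptide peptidase, was at 27.8 to 36.3 CPM in WT, at 13.1 and 14.7 CPM in CKO 1 and CKO 3 and at 39.0 CPM in CKO 2. In each of them the fitted log2 fold change between genotypes (0.09, -0.27 and -0.62) averages over libraries that lie on both sides of WT.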
